A study of Mus musculus with 4 samples.

Results

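Claudins and simple epithelial keratins are the genes of the cell-to-cell seal and of the inner scaffold of epithelia. The 10 genes described here are Cldn3, Cldn4, Cldn5, Cldn6, Cldn7, Cldn9, Cldn12, Krt8, Krt18 and Krt19. They were taken by name, as 7 claudins and 3 keratins, out of 39179 genes counted in each library. Of the 10, 8 passed the filter on low counts and were tested, while Cldn4 and Cldn5 stayed below it. In chimeric embryos with FLAG-Lhx1 cells, Cldn6 was 2.70-fold lower than in those with FLAG-Lhx1-mt cells and Cldn7 was 1.78-fold lower, while the other 6 tested members, the 3 keratins among them, did not pass the test.

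Claudins are membrane proteins whose outer loops meet those of the neighbouring cell in the tight junction. Depending on the claudin, the strand they form either closes the gap between cells or leaves pores for ions. Keratins 8, 18 and 19 are intermediate filament proteins of one-layered epithelia, and a filament always pairs a type II keratin such as KRT8 with a type I keratin such as KRT18 or KRT19. In the mouse, these keratins are among the first intermediate filaments of the embryo, in the trophectoderm and then in the endoderm, and Cldn6 is an early marker of embryonic epithelia.

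RNA was sequenced from 4 chimeric mouse embryos staged at E7.75, 1 library per embryo. The 2 FLAG-Lhx1 embryos had received embryonic stem cells (ESCs) with a doxycycline-inducible, FLAG-tagged LHX1, a LIM homeodomain transcription factor of the head organizer. The 2 FLAG-Lhx1-mt embryos had received ESCs with an altered form, written FLAG-Lhx1-Δ in the protocol, and what the alteration removes was not given in the sources used here. In both groups the cells were injected at the 8-cell stage into hosts of an ARC x RLZRFP cross, the mothers drank 2 mg/mL doxycycline with 5% sucrose for 24 hours, and embryos were collected at E8.5 with about a day of delay. The embryos were selected for a high share of ESC descendants, but a chimera keeps host cells, and ESC descendants as a rule form the embryo proper while most extraembryonic tissue is of host origin. No embryo without doxycycline was analysed here, and the number of ESC clones behind each group was not stated in the labels.

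Total counts per embryo ran between 21267116 and 30434442, so that 3 counts correspond to 0.0959 to 0.153 CPM (counts per 1000000, scaled between libraries by TMM), a limit that covers counting error only. Lhx1 did not differ by the test between the groups (log2 fold 0.11 ± 0.16, SE, edgeR adjusted p = 0.733), and its count sums transcripts of the transgene and of the endogenous gene where both map to it. The primitive streak gene T was present in every embryo, at 137 and 103 CPM in FLAG-Lhx1 embryos and 239 and 150 CPM in FLAG-Lhx1-mt embryos, and was called lower in FLAG-Lhx1 (log2 fold -0.70, edgeR adjusted p = 0.0481). Log2 folds give FLAG-Lhx1 minus FLAG-Lhx1-mt, and a gene was called at an adjusted p under 0.05 in edgeR's quasi-likelihood test. With 2 embryos per group an exact permutation test of a single value cannot go below p = 0.333, so every call rests on a spread borrowed from other genes. In whole embryos, fewer cells of a type and less RNA per cell cannot be told apart.

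The 7 claudins can be compared in the part of the first outer loop that defines the family. It starts with glycine, leucine and tryptophan and holds a pair of cysteines. These stretches are shown because they mark a gene as a claudin and bear on whether reads of one claudin could be taken for another. Capitals mark the codons of those 5 residues, in coding sequence of the GENCODE transcripts on GRCm38, written on the strand of the gene.
Cldn6 (chr17:23681208-23681255, + strand): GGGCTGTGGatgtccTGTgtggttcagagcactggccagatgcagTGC
Cldn9 (chr17:23683458-23683505, - strand): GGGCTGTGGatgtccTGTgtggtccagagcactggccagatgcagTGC
Cldn3 (chr5:134986586-134986633, + strand): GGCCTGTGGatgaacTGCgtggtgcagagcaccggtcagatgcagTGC
Cldn4 (chr5:134946554-134946601, - strand): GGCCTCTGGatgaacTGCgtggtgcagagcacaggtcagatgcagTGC
Cldn5 (chr16:18777140-18777187, + strand): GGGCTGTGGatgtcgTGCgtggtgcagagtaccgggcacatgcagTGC
Cldn7 (chr11:69966071-69966118, + strand): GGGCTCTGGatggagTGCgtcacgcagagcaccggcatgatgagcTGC
Cldn12 (chr5:5508225-5508269, - strand): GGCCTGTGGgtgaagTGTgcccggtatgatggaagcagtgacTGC

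Cldn6 and Cldn9 differed at 1 of these 48 bases, Cldn3 and Cldn4 at 2, and Cldn7 differed from each of the other 48-base stretches at 13 to 15. Cldn12, whose stretch is 45 bases long, was the most distant member, with 47.1% to 49.6% identity to the others over the coding sequence. Over the whole coding sequence Cldn6 and Cldn9 were 73.1% identical, and their longest shared run was 37 bases, shorter than a 100-base read. No other gene's transcript matched a claudin, Krt18 or Krt19 over 100 bases or more at 95% identity or more. Krt8 did have such matches. The pseudogene Krt8-ps matches it over 941 bases at 98.6% identity, and the non-coding gene Gm36026 covers 5.16% of its exon bases on the opposite strand, so the value of Krt8 is uncertain to the extent that reads were shared.

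The members form 3 pairs of chromosomal neighbours. Cldn6 (chromosome 17 at 23679249 to 23682446) and Cldn9 (23682584 to 23684026) lie tail to tail, 137 bases apart on opposite strands. Cldn3 (chromosome 5 at 134986214 to 134987472) and Cldn4 (134945119 to 134946934) are separated by 39279 bases. Krt8 (chromosome 15 at 101996698 to 102004482) and Krt18 (102028180 to 102032027), a type I gene that lies beside the type II cluster, are separated by 23697 bases. Cldn5 (chromosome 16 at 18776847 to 18778262), Cldn7 (chromosome 11 at 69964779 to 69967885), Krt19 (chromosome 11 at 100140810 to 100148665) and Cldn12 (chromosome 5 at 5489537 to 5514958) have no other member within that distance.

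The most abundant member per kilobase of exon was Krt18, with a mean over the 4 embryos of 217 CPM per kb and a range of 190 to 260. Cldn6 followed with 139 (69.4 to 224) and Krt8 with 113 (103 to 119) CPM per kb. Over all 4 embryos the ranges of these neighbours in the order overlapped, but within each group those of Cldn6 and Krt8 did not. A gap without overlap separated Krt8 from Cldn7, at 17.2 CPM per kb, which was followed by Cldn12 at 10.1 and Krt19 at 7.91. After a further gap came Cldn9 at 1.92, Cldn3 at 0.539, Cldn4 at 0.179 and Cldn5 at 0.170 CPM per kb. The order differed between the groups. In FLAG-Lhx1 embryos Krt8 ranked above Cldn6, with group means of 111 and 75.3 CPM per kb, whereas in FLAG-Lhx1-mt embryos Cldn6 ranked above Krt8, with 204 and 115 CPM per kb. Cldn4 and Cldn5, the 2 rarest, also exchanged ranks, at levels of a few counts.

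**Figure D1:**
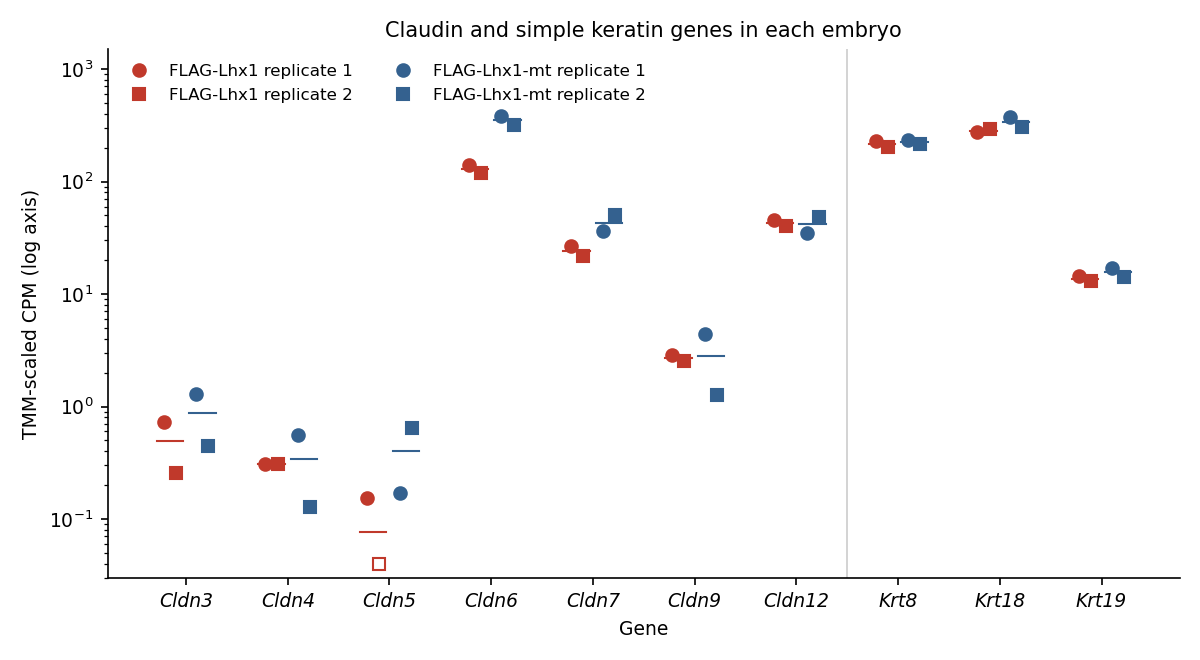
TMM-scaled CPM (log axis) of the 10 members, FLAG-Lhx1 left of FLAG-Lhx1-mt for each gene, with points for the embryos, short lines for group means and an open square on the lower edge for a count of 0. Cldn6 was at 140 and 119 CPM for FLAG-Lhx1 and at 385 and 316 CPM for FLAG-Lhx1-mt, and Krt8 lay between 202 and 233 CPM in all 4.

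Cldn6 (ENSMUSG00000023906) encodes a claudin of embryonic epithelia that is found in few adult tissues. Its level in the FLAG-Lhx1 embryos was 140 CPM (replicate 1) and 119 CPM (replicate 2), and in the FLAG-Lhx1-mt embryos 385 CPM (replicate 1) and 316 CPM (replicate 2). The groups did not overlap: the higher FLAG-Lhx1 embryo was below the lower FLAG-Lhx1-mt embryo. The means were 130 ± 14.3 CPM in FLAG-Lhx1 embryos and 350 ± 49.1 CPM in FLAG-Lhx1-mt embryos (n = 2 each, SD), and the log2 fold was -1.43 ± 0.16 (SE, edgeR adjusted p = 8.14e-05), with a 95% interval of -1.77 to -1.10. The adjusted p of Cldn6 stayed under 0.05 with each embryo left out in turn, at log2 folds of -1.58 to -1.29.

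Cldn7 (ENSMUSG00000018569) encodes a claudin that also sits along the lateral membrane, where it is known to bind the adhesion protein EPCAM. Its level was 26.5 and 21.7 CPM in FLAG-Lhx1 embryos and 36.0 and 49.9 CPM in FLAG-Lhx1-mt embryos, again without overlap. The means were 24.1 ± 3.39 CPM in FLAG-Lhx1 embryos and 43.0 ± 9.83 CPM in FLAG-Lhx1-mt embryos (n = 2 each, SD), and the log2 fold was -0.83 ± 0.19 (SE, edgeR adjusted p = 0.0190), with a 95% interval of -1.24 to -0.42. The call was lost with offsets for transcript length and GC content, at a log2 fold of -0.67 and an adjusted p of 0.0552, and without FLAG-Lhx1 replicate 2, at -0.69 and 0.129.

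Cldn6 and Cldn7 were the only members called, so that 2 of 8 tested members were lower and 0 were higher in FLAG-Lhx1. Over all 15822 tested genes, 6.17% were called, 3.55% lower (561 genes) and 2.62% higher (415 genes). With upper-quartile scaling, 54.4% of 867 calls were higher. Without overlap between the groups were 3 of the 8, namely Cldn6, Cldn7 and Krt18, against 52.2% of all tested genes. That share of members is below that of all genes, and says nothing about the members by itself. The median log2 fold of the tested members was -0.22, against 0.0089 for all tested genes.

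The other claudins tested among the members did not pass. Cldn12, a divergent claudin linked to calcium transport, had 45.6 and 40.5 CPM in FLAG-Lhx1 embryos and 35.1 and 48.8 CPM in FLAG-Lhx1-mt embryos. The FLAG-Lhx1 values lay between those of the FLAG-Lhx1-mt embryos, and the log2 fold was 0.036 with a 95% interval of -0.35 to 0.42 (edgeR adjusted p = 0.937). A fall as large as that of Cldn6 or Cldn7 was outside the interval of Cldn12. The sign of its log2 fold turned in 2 of the alternative settings, to -0.027 without the filter on low counts and to -0.088 with offsets for length and GC content.

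Cldn9, the tail-to-tail neighbour of Cldn6 and the member closest to it in coding sequence, is best known from the inner ear of the mouse. It had 2.90 and 2.54 CPM in FLAG-Lhx1 embryos and 4.38 and 1.28 CPM in FLAG-Lhx1-mt embryos. The FLAG-Lhx1-mt embryos enclosed the FLAG-Lhx1 embryos, and the log2 fold of -0.034 had a 95% interval of -1.05 to 0.99 (edgeR adjusted p = 0.980). Without FLAG-Lhx1-mt replicate 1 it was 1.08, and without FLAG-Lhx1-mt replicate 2 it was -0.70, so its direction rested on 1 embryo. Within an embryo, Cldn6 exceeded Cldn9 per kilobase 40.4 and 39.4 times in FLAG-Lhx1 and 73.7 and 207 times in FLAG-Lhx1-mt. Whether the log2 folds of these neighbours differ was not tested.

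Cldn3, Cldn4 and Cldn5 were near the limit of these libraries. Cldn3, a sealing claudin of many epithelia, had 19 and 5 counts in FLAG-Lhx1 embryos and 30 and 14 counts in FLAG-Lhx1-mt embryos, and its log2 fold of -0.76 had a 95% interval of -2.32 to 0.80 (edgeR adjusted p = 0.604). It turned to 0.16 without FLAG-Lhx1-mt replicate 1. Cldn4, a close relative of Cldn3 and, like it, a receptor for a Clostridium toxin, had 8 and 6 counts in FLAG-Lhx1 embryos and 13 and 4 counts in FLAG-Lhx1-mt embryos. Cldn5, the claudin of endothelium, had 4 and 0 counts in FLAG-Lhx1 embryos and 4 and 20 counts in FLAG-Lhx1-mt embryos, so that its highest value came from a single embryo. A difference between the groups was not detectable at this depth for these 3 genes.

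Summed over the 7 claudin members, the level was 216 and 185 CPM in FLAG-Lhx1 embryos and 463 and 417 CPM in FLAG-Lhx1-mt embryos. The group means were 200 ± 22.1 CPM in FLAG-Lhx1 embryos and 440 ± 32.3 CPM in FLAG-Lhx1-mt embryos (n = 2 each, SD), a log2 ratio of -1.13, and the sum is mostly Cldn6. The sum over the 3 keratins was 519 and 507 CPM in FLAG-Lhx1 embryos and 625 and 536 CPM in FLAG-Lhx1-mt embryos. The keratin means of 513 ± 8.31 CPM in FLAG-Lhx1 embryos and 580 ± 62.6 CPM in FLAG-Lhx1-mt embryos (n = 2 each, SD) differed by a log2 ratio of -0.18, and by -0.063 without FLAG-Lhx1-mt replicate 1.

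Krt8 (ENSMUSG00000049382) encodes the type II partner of the simple keratin filament. Its level was 231 and 202 CPM in FLAG-Lhx1 embryos and 233 and 216 CPM in FLAG-Lhx1-mt embryos. The groups overlapped. The means were 217 ± 20.7 CPM in FLAG-Lhx1 embryos and 225 ± 12.5 CPM in FLAG-Lhx1-mt embryos (n = 2 each, SD), and the log2 fold was -0.051 ± 0.14 (SE, edgeR adjusted p = 0.882) with a 95% interval of -0.36 to 0.25. Its sign turned with upper-quartile scaling (0.00092) and with offsets for length and GC content (0.054).

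Krt18 (ENSMUSG00000023043) encodes the main type I partner of KRT8. It had 273 and 292 CPM in FLAG-Lhx1 embryos and 374 and 306 CPM in FLAG-Lhx1-mt embryos. The groups did not overlap, but the gap between them was smaller than the distance between the FLAG-Lhx1-mt embryos. The log2 fold was -0.27 ± 0.15 (SE, edgeR adjusted p = 0.326) with a 95% interval of -0.58 to 0.05. Krt19, a type I keratin without the tail domain of the others, had 14.5 and 12.97 CPM in FLAG-Lhx1 embryos and 17.0 and 14.3 CPM in FLAG-Lhx1-mt embryos, with a log2 fold (± SE) of -0.18 ± 0.21 (edgeR adjusted p = 0.682). Of the 3 keratins, 0 passed in edgeR, 0 had an unadjusted p under 0.05, and 0 were called by DESeq2 or by limma-voom.

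Ratios within an embryo do not depend on how libraries were scaled. The ratio of Cldn6 to Krt8 per kilobase was 0.687 and 0.672 in FLAG-Lhx1 embryos and 1.88 and 1.66 in FLAG-Lhx1-mt embryos. That of Cldn7 to Krt8 was 0.115 and 0.108 in FLAG-Lhx1 and 0.155 and 0.233 in FLAG-Lhx1-mt, and that of Cldn12 to Krt8 was 0.0914 and 0.0928 in FLAG-Lhx1 and 0.0697 and 0.105 in FLAG-Lhx1-mt. Only the first 2 of these ratios were separated between the groups. Krt18 exceeded Krt8 1.61 and 1.97 times in FLAG-Lhx1 embryos and 2.18 and 1.93 times in FLAG-Lhx1-mt embryos, which overlapped. Krt19 stood at 0.0662 and 0.0678 of Krt8 in FLAG-Lhx1 embryos and at 0.0767 and 0.0697 in FLAG-Lhx1-mt embryos, without overlap but by a small margin. The ratio of Cldn6 to Cldn7 was 5.96 and 6.22 in FLAG-Lhx1 embryos and 12.1 and 7.15 in FLAG-Lhx1-mt embryos, without overlap, although FLAG-Lhx1-mt replicate 2 lay near the FLAG-Lhx1 embryos.

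**Figure D2:**
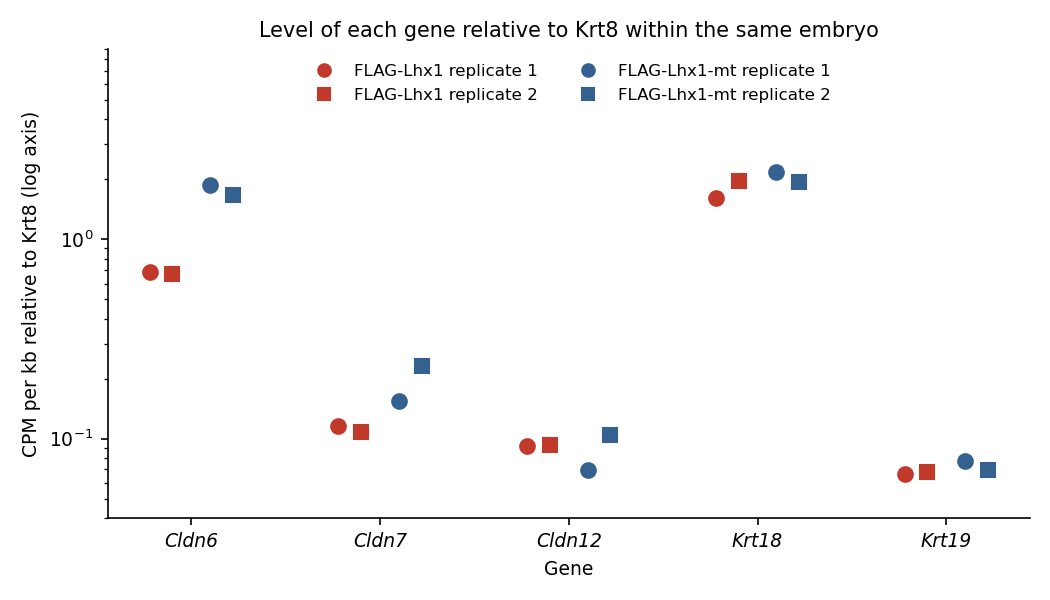
Level per kilobase of exon of 5 members relative to Krt8 within each embryo (log axis), FLAG-Lhx1 left of FLAG-Lhx1-mt. Cldn6 was at 0.687 and 0.672 of Krt8 for FLAG-Lhx1 and at 1.88 and 1.66 for FLAG-Lhx1-mt, while Krt18 overlapped between the groups.

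Genes of like pattern were sought for Cldn6 and Krt8 by the Euclidean distance between log2 CPM centred over the 4 embryos, among 8768 genes. These were protein-coding genes of 5 CPM or more on average, and the tested members, of which Cldn3 and Cldn9 lie below that level. Nearest to Cldn6 were Pilra (0.136), Ap1m2 (0.177), Folr1 (0.194), Hes6 (0.198) and Tdh (0.204). Ap1m2 encodes a subunit of the adaptor that sorts proteins to the basolateral membrane of epithelia, and Folr1 a folate receptor. Folr1 had 29.4 and 27.0 CPM in FLAG-Lhx1 embryos and 80.7 and 78.03 CPM in FLAG-Lhx1-mt embryos, a log2 fold of -1.49. Cldn7 came at rank 391 of the order around Cldn6, and Cldn9 at rank 7885. Nearest to Krt8 were Gmds (0.0109), Gas2l1 (0.0191), Eprs (0.0299), Dmd (0.0309) and Adh5 (0.0317). Eprs encodes a tRNA synthetase, Dmd the muscle protein dystrophin, and Adh5 an alcohol dehydrogenase. Krt19 stood at rank 482 around Krt8, and Krt18, the partner of KRT8 in the filament, at rank 2860. With 4 embryos these distances describe the libraries only.

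Other claudins were taken as a list of 29 symbols, the members included, of which 26 were found and 12 tested. Over all tested genes 6.17% were called, 3.55% lower and 2.62% higher, the shares to set beside this and each later list. Of the 12, 1 rose and 2 fell, and the median log2 fold was 0.0010. The 1 that rose was Cldn10, which forms ion pores. It had 2.79 and 2.95 CPM in FLAG-Lhx1 embryos and 0.258 and 0.479 CPM in FLAG-Lhx1-mt embryos, with a log2 fold (± SE) of 2.91 ± 0.52 (edgeR adjusted p = 0.00467) at a low level. Cldn2, a pore-forming claudin of leaky epithelia, had 18.3 and 21.2 CPM in FLAG-Lhx1 embryos and 23.8 and 24.8 CPM in FLAG-Lhx1-mt embryos, without overlap, and did not pass (log2 fold -0.30, adjusted p = 0.380). The claudin domain gene Cldnd1 did not pass either (-0.45, adjusted p = 0.185), though it was called without FLAG-Lhx1-mt replicate 2 (-0.68, adjusted p = 0.00896). Cldn1, Cldn8, Cldn11 and Cldn34c1 were each at 1.60 CPM or less in every embryo, with adjusted p of 0.452 to 0.966.

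Among keratins, a list of 20 genes with the members included had 9 tested and 0 called by edgeR, with 0 by DESeq2, 0 by limma-voom and 1 at an unadjusted p under 0.05. The median log2 fold was -0.14. The 1 was Krt7, a type II keratin of simple epithelia, with 6.34 and 6.11 CPM in FLAG-Lhx1 embryos and 9.92 and 9.94 CPM in FLAG-Lhx1-mt embryos, with a log2 fold (± SE) of -0.67 ± 0.25 (edgeR adjusted p = 0.127). Krt10, a keratin of layered epidermis, was at 16.3 and 16.3 CPM in FLAG-Lhx1 embryos and 13.9 and 15.9 CPM in FLAG-Lhx1-mt embryos (log2 fold 0.13, adjusted p = 0.779). Krt1, Krt17, Krt23 and Krt222 stayed at 1.53 CPM or less. Krt5 and Krt14, which mark basal layers of stratified epithelia, were below the filter, with 7 and 2 counts of Krt5 in FLAG-Lhx1 embryos and 3 and 5 counts in FLAG-Lhx1-mt embryos.

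**Figure D3:**
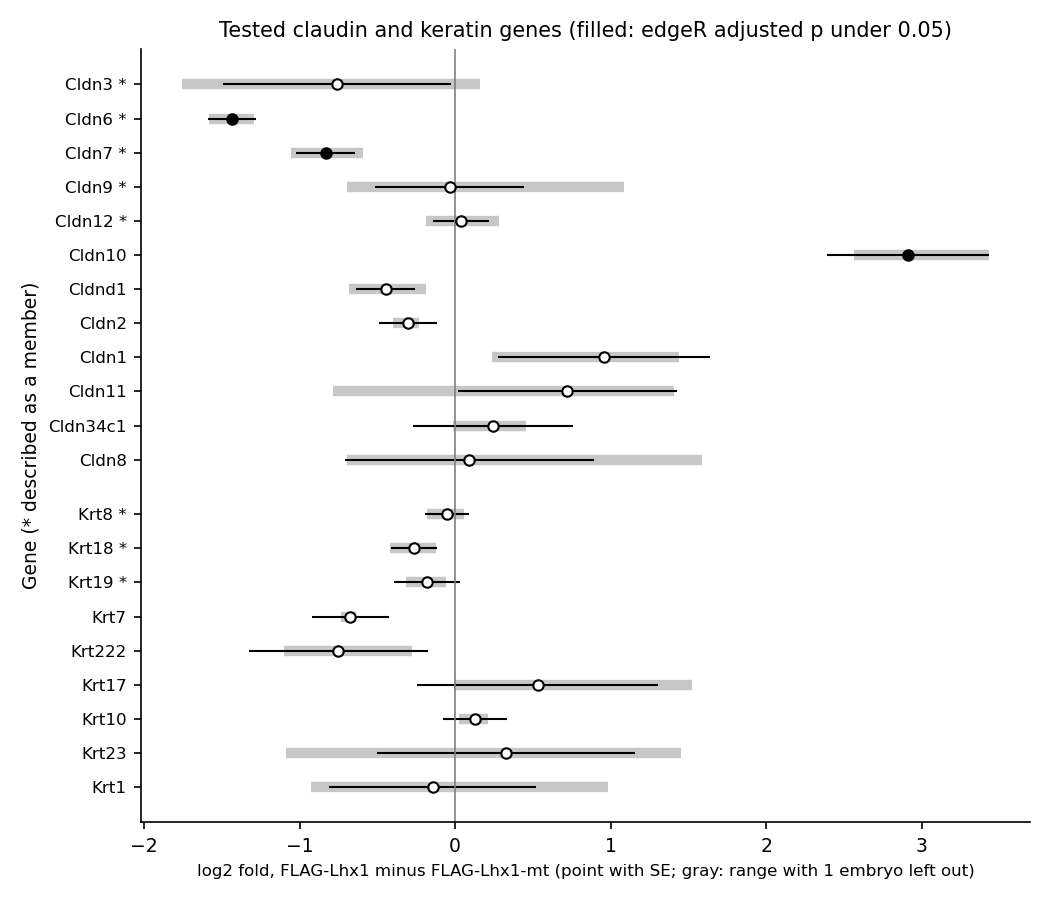
Log2 folds, FLAG-Lhx1 minus FLAG-Lhx1-mt, of all 12 tested claudin and 9 tested keratin genes, with SE as a line and the range with 1 embryo left out in gray (* marks the members, filled points an adjusted p under 0.05). Cldn6 (-1.43) and Cldn7 (-0.83) are filled on the left and Cldn10 (2.91) on the right, and no keratin is filled.

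The proteins that work with claudins at the tight junction were tested in 24 genes, of which 1 rose, 2 fell and 21 did not pass, with a median log2 fold of 0.11. F11r, which encodes the adhesion molecule JAM-A, had 17.7 and 19.0 CPM in FLAG-Lhx1 embryos and 41.8 and 34.4 CPM in FLAG-Lhx1-mt embryos, with a log2 fold (± SE) of -1.05 ± 0.18 (edgeR adjusted p = 0.00357). Crb3, of the apical Crumbs complex, had 8.78 and 7.17 CPM in FLAG-Lhx1 embryos and 18.0 and 18.9 CPM in FLAG-Lhx1-mt embryos, with a log2 fold (± SE) of -1.21 ± 0.22 (adjusted p = 0.00553). Magi1, a scaffold of the junction, was higher, at 63.8 and 59.98 CPM in FLAG-Lhx1 embryos and 28.2 and 39.7 CPM in FLAG-Lhx1-mt embryos (log2 fold 0.86 ± 0.18, SE, adjusted p = 0.0104). F11r and Crb3 thus fell beside Cldn6 and Cldn7, and Magi1 went the other way. Occludin (Ocln), a further strand protein of the junction, did not pass, with 11.4 and 8.34 CPM in FLAG-Lhx1 embryos and 13.4 and 14.8 CPM in FLAG-Lhx1-mt embryos (log2 fold -0.51, adjusted p = 0.229). Tjp1, which encodes the claudin-binding scaffold ZO-1, did not pass (log2 fold 0.47, edgeR adjusted p = 0.0720). It was called in 2 of 7 alternative settings, by DESeq2 (adjusted p = 0.0490) and with upper-quartile scaling (0.0458). Over the 7 settings its log2 fold was 0.24 to 0.53, and its adjusted p reached 0.389. With 1 embryo left out its log2 fold was 0.35 to 0.57.

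Over all tested genes 6.17% were called. Among the 13 tested genes of desmosomes and keratin linkers, 1 fell and 12 did not pass (median log2 fold 0.044). The 1 was Krtcap3, which is named for keratinocytes and not for a desmosome or a keratin link. Krtcap3 had 8.40 and 10.99 CPM in FLAG-Lhx1 embryos and 18.1 and 22.3 CPM in FLAG-Lhx1-mt embryos (log2 fold -1.06 ± 0.23, SE, edgeR adjusted p = 0.0130). It lost its call without FLAG-Lhx1 replicate 1 (-0.91, adjusted p = 0.0769). Dsp, which encodes desmoplakin, the protein that ties keratin filaments to the desmosome, did not pass at 37.6 and 42.9 CPM in FLAG-Lhx1 embryos and 32.2 and 28.1 CPM in FLAG-Lhx1-mt embryos (log2 fold 0.42, adjusted p = 0.164). Among 11 tested genes of other intermediate filaments, 2 rose and none fell (median 0.25). Vim, the vimentin of mesenchymal cells, rose to 124 and 144 CPM in FLAG-Lhx1 embryos, against 65.2 and 70.0 CPM in FLAG-Lhx1-mt embryos (log2 fold 0.98 ± 0.15, SE, adjusted p = 0.00140). Synm, which encodes synemin, rose by a log2 fold of 1.62 (adjusted p = 0.0245), and its call was lost with offsets for length and GC content (adjusted p = 0.0525) and without FLAG-Lhx1 replicate 2 (0.111).

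Regulators and surface genes of epithelia were tested in 26 genes, of which 3 rose, 3 fell and 20 did not pass, with a median log2 fold of -0.44. Mal2 and Rab25, which act in traffic to the apical surface, were lower. Mal2 had 8.09 and 5.90 CPM in FLAG-Lhx1 embryos and 49.0 and 43.7 CPM in FLAG-Lhx1-mt embryos (log2 fold -2.72, adjusted p = 2.78e-06), and Rab25 had 12.6 and 12.7 CPM in FLAG-Lhx1 embryos and 30.6 and 33.6 CPM in FLAG-Lhx1-mt embryos (-1.34, adjusted p = 0.000760). Epcam, whose product binds claudin 7, had 204 and 147 CPM in FLAG-Lhx1 embryos and 239 and 321 CPM in FLAG-Lhx1-mt embryos (-0.67 ± 0.18, SE, adjusted p = 0.0386). The ratio of Cldn7 to Epcam per kilobase stayed between 0.146 and 0.166 in FLAG-Lhx1 and between 0.170 and 0.175 in FLAG-Lhx1-mt. The Epcam call was lost with upper-quartile scaling (adjusted p = 0.0612), with offsets for length and GC content (0.0883), and without FLAG-Lhx1 replicate 2 (-0.44, 0.297) or without FLAG-Lhx1-mt replicate 2 (-0.46, 0.0754). Prom1, a gene of apical membrane protrusions, was higher in FLAG-Lhx1 (log2 fold 0.83, adjusted p = 0.00373). Cdh1, which encodes E-cadherin of the adherens junction, did not pass, at 155 and 131 CPM in FLAG-Lhx1 embryos and 128 and 171 CPM in FLAG-Lhx1-mt embryos (-0.061, adjusted p = 0.874).

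Snai2 and Zeb2, repressors of epithelial genes that bind the E-box CAGGTG, were higher in FLAG-Lhx1. Snai2 had 6.14 and 6.31 CPM in FLAG-Lhx1 embryos and 1.46 and 0.831 CPM in FLAG-Lhx1-mt embryos (log2 fold 2.46, adjusted p = 0.00162). Zeb2 had 37.4 and 37.8 CPM in FLAG-Lhx1 embryos and 23.3 and 12.5 CPM in FLAG-Lhx1-mt embryos (1.08, adjusted p = 0.0147), and its call was lost with offsets for length and GC content (0.74, adjusted p = 0.0789). Without FLAG-Lhx1-mt replicate 2, Zeb2 had a log2 fold of 0.68 (adjusted p = 0.0179). Their relatives Snai1 and Zeb1 did not pass, and Snai1 went the other way (log2 fold -0.84, edgeR adjusted p = 0.114). Snai1 had 4.81 and 3.26 CPM in FLAG-Lhx1 embryos and 6.66 and 7.86 CPM in FLAG-Lhx1-mt embryos. The log2 fold of Zeb1 was 0.72 (edgeR adjusted p = 0.203). Grhl2, an activator of claudin and cadherin genes, did not pass (-0.091, adjusted p = 0.883).

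**Figure D4:**
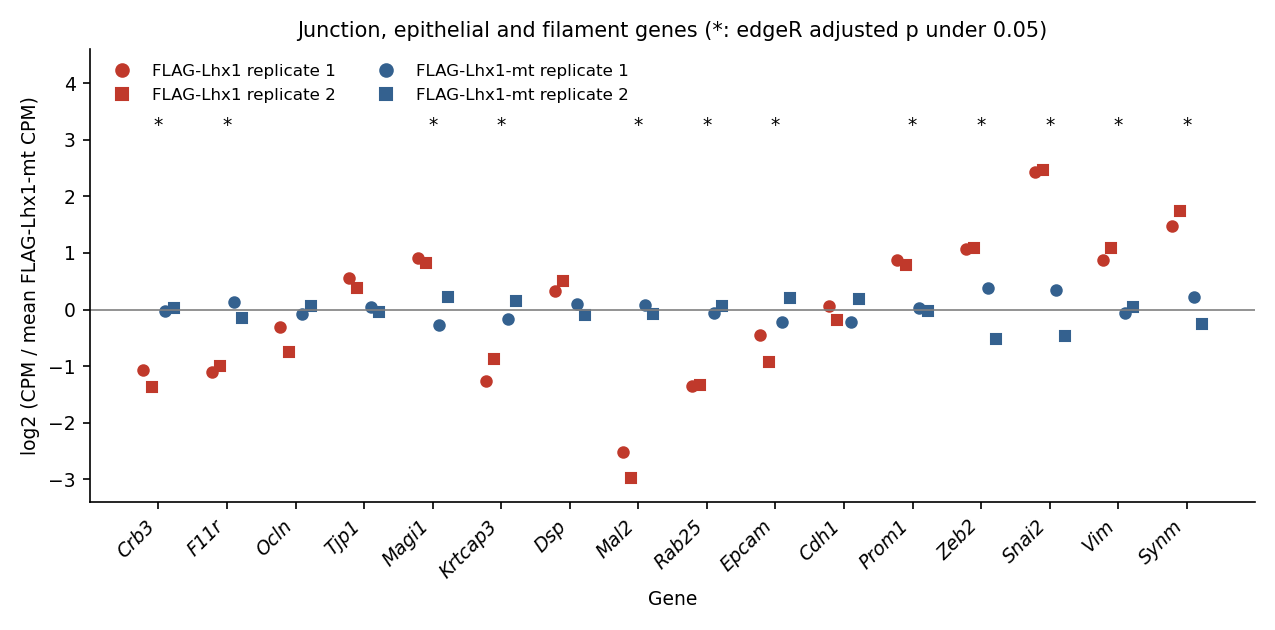
Log2 of CPM over the mean CPM of the FLAG-Lhx1-mt embryos, for each embryo and 16 genes of junctions, filaments and epithelial regulation, FLAG-Lhx1 left of FLAG-Lhx1-mt (* marks an adjusted p under 0.05). Mal2 (log2 fold -2.72), Rab25, Crb3, F11r and Krtcap3 lie below the line at 0 in FLAG-Lhx1, and Snai2 (2.46), Synm, Zeb2 and Vim above it.

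The letters of that E-box, CAGGTG or CACCTG on the other strand, were searched in the 250 bases before each RefSeq start of a gene. The windows of 7 members were used, those of Cldn3, Cldn4, Cldn5, Cldn6, Cldn7, Cldn12 and Krt18, with 2 RefSeq starts for Cldn7, 3 for Cldn12 and 1 for each of the others. The windows of the other 3 members were not used here, so the counts are not over all members. Of the 7, 4 hold the motif in at least 1 window (Cldn4, Cldn6, Cldn7 and Krt18), and 19.4% of 27025 genes do. The matches are shown with 12 bases on each side, from RefSeq on GRCm38.p6 on the strand of the gene, the motif in capitals.
Cldn6 (chr17:23679260-23679289, + strand): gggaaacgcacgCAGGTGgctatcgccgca
Cldn7 (chr11:69965312-69965341, + strand): tttcttcctcttCACCTGgacgaggagggg
Cldn7, second match (chr11:69965352-69965381, + strand): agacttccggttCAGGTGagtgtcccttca
Cldn4 (chr5:134946931-134946960, - strand): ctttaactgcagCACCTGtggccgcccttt
Krt18 (chr15:102027990-102028019, + strand): aggggctaacacCACCTGctatcctttgtg

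Counted back from the RefSeq start of its window, the match lies 93 bases away in Cldn6, 97 and 57 in Cldn7, 14 in Cldn4 and 214 in Krt18. The RefSeq start used for Cldn6 is 116 bases inside the GENCODE gene, so its match lies within that gene model. Both Cldn7 matches belong to an internal RefSeq start, 642 bases past the start of the GENCODE gene, and also lie within the gene, while the window before its outer start holds no match. The motif was present for both called members, for Krt18, which was not called, and for Cldn4, which was not tested. It was absent for Cldn3 and Cldn12, which were not called, and for Cldn5, which was not tested. A part of the motif in the lower Cldn6 and Cldn7 was not tested. The letters TAATTA, bound by LIM homeodomain proteins, are in 4.84% of all 32851 windows and in none of the 7 members' windows. The Grainyhead motif AACCGGTT is in 0.116% of windows and in none of the 7, and its relaxed form AACNGGTT is in 1.79% and, among the 7, before Cldn5. The letters GGGCGG are in 32.7% of windows and in a window of Cldn3, Cldn4, Cldn5, Cldn6, Cldn7 and Cldn12. For Cldn7 and Cldn12 they belong to internal RefSeq starts and lie within the gene model, and the window before the outer start holds none. The letters TATAAA are in 12.4% of windows and before none of the 7. A match describes these letters only, and no match says only that they are not in this window.

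Epithelia of several tissues use these genes, so lists of cell type markers were measured beside them. The share called over all tested genes was 6.17%, with 3.55% lower and 2.62% higher. Visceral endoderm, the outer epithelium of the embryo, had more markers called lower than higher. Of its 20 tested markers 8 fell, 1 rose and 11 did not pass (median log2 fold -0.60), and the summed level was 2675 and 2989 CPM in FLAG-Lhx1 embryos and 5679 and 4746 CPM in FLAG-Lhx1-mt embryos. The apolipoprotein genes Apoa1 (log2 fold -1.30, adjusted p = 0.000119) and Apoe (-1.39, adjusted p = 0.000268) and the retinoic acid hydroxylase gene Cyp26a1 (-1.50, adjusted p = 0.000283) were among those that fell. Apoa4 was also called lower, but exons of other genes cover 69.8% of its exon bases, so its value is uncertain. The 1 marker that rose was Apoa2, also an apolipoprotein gene (log2 fold 0.68, edgeR adjusted p = 0.0144). Apoa2 had 81.7 and 92.3 CPM in FLAG-Lhx1 embryos and 54.0 and 55.0 CPM in FLAG-Lhx1-mt embryos. The ratio of Cldn6 to Apoe per kilobase was 0.377 and 0.279 in FLAG-Lhx1 embryos and 0.321 and 0.353 in FLAG-Lhx1-mt embryos, which overlapped. The ratios of Cldn6 to 3 other visceral endoderm genes did not overlap. The ratio to Afp was 1.85 and 1.96 in FLAG-Lhx1 and 3.23 and 3.18 in FLAG-Lhx1-mt, that to Cubn 7.32 and 6.56 in FLAG-Lhx1 and 13.7 and 10.9 in FLAG-Lhx1-mt, and that to Ttr 0.235 and 0.150 in FLAG-Lhx1 and 0.354 and 0.336 in FLAG-Lhx1-mt. The part of visceral endoderm in the lower Cldn6 and Cldn7 was not tested.

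Extraembryonic ectoderm and trophoblast had 11 tested markers, of which 1 fell (Rhox5, log2 fold -0.76, adjusted p = 0.00954, lost without FLAG-Lhx1 replicate 1 at 0.0822) and 10 did not pass (median log2 fold 0.16). Their summed level was 110 and 136 CPM in FLAG-Lhx1 embryos and 197 and 189 CPM in FLAG-Lhx1-mt embryos, most of it Rhox5. Without Rhox5 the sum was 24.2 and 27.2 CPM in FLAG-Lhx1 embryos and 29.6 and 27.3 CPM in FLAG-Lhx1-mt embryos. Definitive endoderm and gut had 3 of 10 lower (Trh, Cer1 and Cxcr4), a median of -0.39, and sums of 202 and 152 CPM in FLAG-Lhx1 embryos and 261 and 343 CPM in FLAG-Lhx1-mt embryos. The calls of Cer1 and Cxcr4 were lost without FLAG-Lhx1 replicate 2 (adjusted p = 0.303 and 0.196), and that of Cer1 also with the offsets (0.0613). The part of these tissues in the lower Cldn6 and Cldn7 was not tested.

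Surface ectoderm and amnion had 2 of 12 higher (Wnt6 and Tfap2a), a median of 0.90, and sums of 47.9 and 50.4 CPM in FLAG-Lhx1 embryos and 47.7 and 39.9 CPM in FLAG-Lhx1-mt embryos. The Tfap2a call was lost without either of the FLAG-Lhx1 embryos or without FLAG-Lhx1-mt replicate 2 (adjusted p = 0.0645, 0.209 and 0.102), and with the offsets (0.0560). Node and notochord had 2 of 12 higher (Sox9 and Shh), 1 lower (T) and a median of 0.27. Their sums were 233 and 185 CPM in FLAG-Lhx1 embryos against 301 and 196 CPM in FLAG-Lhx1-mt embryos. Most of each sum was T, at 137 and 103 CPM in FLAG-Lhx1 embryos and 239 and 150 CPM in FLAG-Lhx1-mt embryos. The sums thus mainly follow T and do not give the direction of the other markers. The call of T was lost without FLAG-Lhx1 replicate 2 or without FLAG-Lhx1-mt replicate 1 (adjusted p = 0.225 and 0.261), with upper-quartile scaling (0.0717) and with offsets for length and GC content (0.0932). Of Shh, 28.4% of the exon bases are shared with other genes, so its value is uncertain.

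Endothelium and blood, the tissues of Cldn5, had 0 of 11 called by edgeR, DESeq2 or limma-voom and 1 at an unadjusted p under 0.05, Pecam1, which was called without FLAG-Lhx1-mt replicate 2 (adjusted p = 0.0212). Their median log2 fold was -0.15, and the sums were 65.6 and 63.5 CPM in FLAG-Lhx1 embryos and 66.0 and 76.9 CPM in FLAG-Lhx1-mt embryos. The embryonic globin genes Hba-x, Hbb-bh1 and Hbb-y were at 0 to 4 counts in every embryo. Maternal decidua had 0 of 7 called by each of the 3 tools and 1 at an unadjusted p under 0.05, a median of 0.16, and sums of 9.62 and 9.92 CPM in FLAG-Lhx1 embryos and 8.89 and 8.34 CPM in FLAG-Lhx1-mt embryos.

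**Figure D5:**
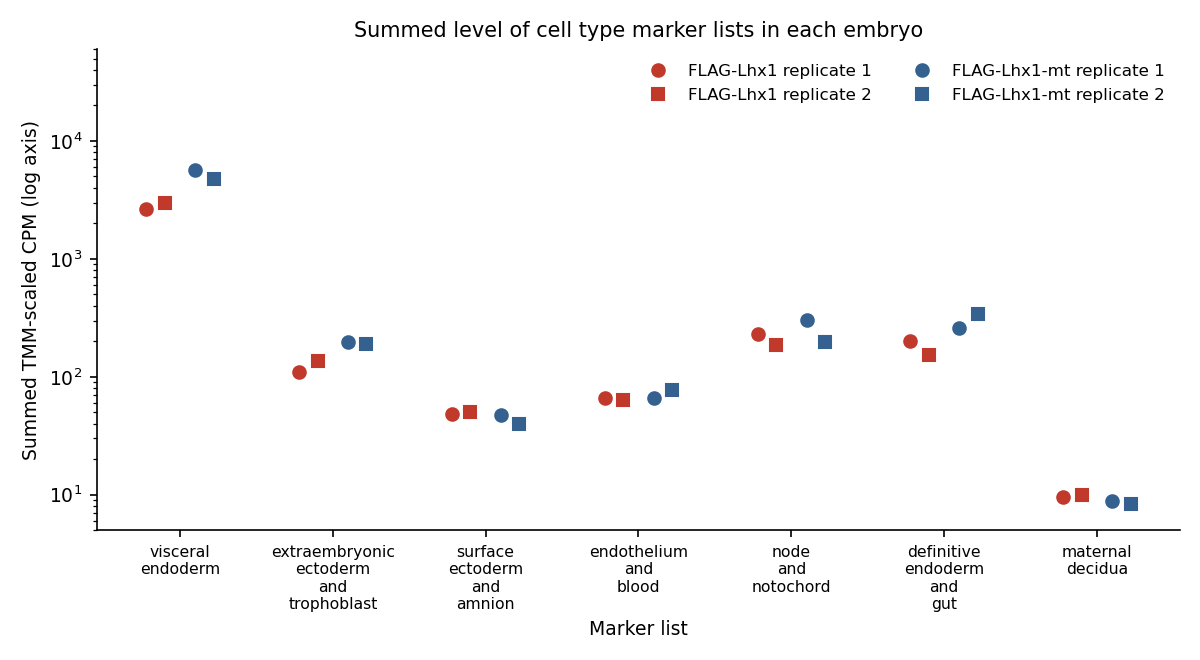
Summed TMM-scaled CPM (log axis) of 7 lists of cell type markers in each embryo, FLAG-Lhx1 left of FLAG-Lhx1-mt. Visceral endoderm was at 2675 and 2989 CPM in FLAG-Lhx1 embryos and at 5679 and 4746 CPM in FLAG-Lhx1-mt embryos, while endothelium and blood lay between 63.5 and 76.9 CPM in all 4.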

How the data were processed

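The authors deposited raw counts of reads for each Ensembl gene, as whole numbers without normalization. The submitters' processing notes name STAR, Subread's featureCounts, GRCm38 and mm10, while versions, annotation, strand and multi-mapping settings were not given in the sources used here. Per the labels' protocols, libraries followed Geo-seq (10 cycles of pre-amplification, 0.5 ng cDNA, Nextera XT, 100 bp paired reads), which name no molecular identifiers. Nextera XT marks no strand, so reads of overlapping genes cannot be told apart.

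Symbols and positions came from GENCODE vM21 (37693 of 39179 IDs, 96.2%). Genes were filtered with filterByExpr (minimum count 10, total 15), scaled by TMM and tested with edgeR 4.0.16 (R 4.3.3; estimateDisp, glmQLFit, glmQLFTest, group only), with Benjamini-Hochberg adjustment over 15822 genes. Standard errors were taken as the absolute log2 fold divided by the root of F, and intervals use 2 residual and 13.4 prior degrees of freedom. The biological coefficient of variation was 18.2%. No 2 libraries agreed within sampling noise (chi-square per degree of freedom 30.4 to 120). RNA came from single embryos, so the spread behind the p-values is one between embryos. It was estimated from 2 embryos per group and moderated by that of other genes. On simulated counts for 15367 genes in the design of FLAG-Lhx1 minus FLAG-Lhx1-mt, edgeR recovered 51% of 100 genes with a log2 fold of 1 and 90% of 100 with 2, with 6 false among 147 calls. In the simulation each gene had the spread of the trend at its level, without a spread of its own. No gene at counts as low as those of Cldn3, Cldn4 or Cldn5 was changed, so recovery at such counts is not covered. Alternatives were DESeq2 1.42.0, limma-voom (limma 3.58.1), RLE and upper-quartile scaling, no filter, offsets for transcript length and GC content (natural splines, 4 df each), the replicate number as a block, and each embryo left out.

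The members and lists were chosen with earlier results of these data known. Named were all members, every other tested claudin or keratin, up to 4 called genes per other list by p (or the 2 smallest p), and 5 genes of like pattern each for Cldn6 and Krt8. Epcam, Cdh1, Zeb1, Zeb2, Snai1, Ocln, Tjp1, Dsp, Grhl2, Lhx1, Krt5, Krt14, Afp, Apoa2, Cubn, Ttr and the globin genes were added after values were seen. Some genes the rule picks are left out. 1 upstream window is not reported here.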

Additional observations from a re-analysis of the deposited data

How the results depend on the processing

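Leaving out 1 embryo at a time gave 521 to 1648 called genes over the whole table, against 976 with all 4, and left 1 to 2 of the members called. With offsets for transcript length and GC content 1 member was called, Cldn6. Its log2 fold was then -1.30, and that of Cldn7 was -0.67. Among the tested genes, those with long transcripts tended to lie higher in FLAG-Lhx1 embryos (Spearman correlation 0.245). GC-rich genes tended to lie lower (-0.163). The source of these trends was not tested. The count over all genes stayed within 1.5 times in the other alternatives, at 791 to 1447, but upper-quartile scaling moved the share of calls that were higher in FLAG-Lhx1 to 54.4% of 867. The replicate numbers did not pair the embryos (correlation of the deviations of same-numbered embryos 0.016), and with replicate number as a block 1138 genes and 2 members were called. The log2 fold of Cldn9 turned positive with limma-voom (0.30), upper-quartile scaling (0.024), the offsets (0.11) and the block (0.15); that of Cldn12 turned negative without the filter (-0.027) and with the offsets (-0.088), and that of Krt8 positive with upper-quartile scaling (0.00092) and the offsets (0.054). Upper-quartile scaling also turned Gas2l1 (0.020) and Eprs (0.022). The cause was not tested. With 1 embryo left out, signs turned within these ranges: Cldn3 -1.76 to 0.16, Cldn9 -0.70 to 1.08, Cldn12 -0.19 to 0.28, Krt8 -0.18 to 0.055, Cldn11 -0.79 to 1.41, Cldn34c1 -0.015 to 0.46, Cldn8 -0.70 to 1.59, Krt17 -0.0098 to 1.52, Krt23 -1.09 to 1.45, Krt1 -0.93 to 0.98, Gmds -0.18 to 0.047, Gas2l1 -0.16 to 0.073, Eprs -0.15 to 0.066, Dmd -0.20 to 0.051, Adh5 -0.21 to 0.023, Cdh1 -0.26 to 0.15, Grhl2 -0.43 to 0.16, Lhx1 -0.067 to 0.29. Depth limits Cldn3, Cldn4 and Cldn5 most.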
